A study of Mus musculus with 11 samples.

Results

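The TRIM (tripartite motif) family was described gene by gene in mouse mammary tumors with and without *Pcbp1*, with the members that interferon induces set beside the others. Members were the genes annotated as protein-coding in the deposited tables whose symbol is Trim, a number and at most 1 further letter. This gave 56 of the 26283 genes in the tables, of which 16314 are protein-coding. By textbook knowledge 14 of the 56 belong to the interferon-induced group and 42 to other groups, sorted by protein domain or tissue. These lists were chosen with earlier results of these data known. Of the 56, 44 passed the filter on low counts and were tested, 11 of them interferon-induced and 33 not, and 12 were not tested. Counts over the tested members are therefore not counts over the whole family.

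Bulk RNA sequencing covered 11 mammary tumors, taken from female C57BL/6 mice at 18 weeks of age. The sample titles give genotype and replicate number but not the mouse each tumor came from. Every mouse carried MMTV-PyMT, in which a mouse mammary tumor virus promoter drives the middle T oncogene of polyomavirus, and MMTV-Cre, in which that promoter drives Cre recombinase in mammary epithelium. The *Pcbp1* alleles were floxed, written fl/fl, in the 6 PyMT *Pcbp1*–/– tumors (hereafter knockout), and wt/wt in the 5 PyMT *Pcbp1*+/+ tumors (hereafter wild-type). The promoter is meant to delete the gene in epithelium, and the bulk RNA also holds transcripts of stromal, vascular and immune cells. Whether Cre acted in those cells was not tested. The labels describe stranded libraries with poly(A) enrichment and give a single batch for all 11.

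TRIM proteins share an amino-terminal arrangement of a RING finger, B-box zinc fingers and a coiled coil, and most act as ubiquitin ligases through the RING. Their carboxy-terminal parts differ and set what they bind: a B30.2 (PRY-SPRY) domain in many antiviral members, NHL repeats, a COS box that binds microtubules, or a PHD finger with a bromodomain in nuclear corepressors. Several members are themselves induced by interferon and act on viral capsids or on the sensors of foreign RNA and DNA, while others are known from muscle, germ cells, neurons or stratified epithelium.

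The targeted gene was read first, since it checks the labels. *Pcbp1* (ENSMUSG00000051695.6, GRCm38 chr6:86524492-86526321), which encodes a poly(C)-binding protein, had 19.5, 19.2, 28.1, 22.3, 15.4 and 33.6 CPM (counts per 1000000 counts) in knockout replicates 1 to 6. It had 268, 271, 225, 220 and 259 CPM in wild-type replicates 1 to 5. Each knockout tumor lay below each wild-type tumor, and the means were 23.0 ± 6.70 (SD, n = 6) and 249 ± 24.4 CPM (SD, n = 5), a difference with the smallest p that these group sizes allow (two-sided exact permutation test, p = 0.00433). Estimated counts per tumor summed to between 11239931 and 14092192 in knockout and between 10543189 and 11411776 in wild-type tumors, higher on average in knockout tumors (exact permutation test, two-sided, p = 0.00866), with knockout replicate 3 below wild-type replicate 3. A count of 0 allows up to 3 counts, or 0.213 to 0.285 CPM depending on the tumor, which covers counting error only. CPM divides by these totals, and their part in the results was not tested.

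Interferon-induced members lay on the lower side in the knockout tumors and the other members on both sides. All 11 tested interferon-induced members had a negative log2 fold change (knockout over wild-type), from -1.78 to -0.08, with a median of -0.71, and *Trim14*, the member at -0.08, was positive when any of 4 tumors was left out. Among the 33 other members 18 were negative and 15 positive, with a median of -0.04. Over all 19232 genes tested 9619 were negative and 9613 positive, with a median of -0.00012. In bulk samples fewer cells of a type and less RNA per cell cannot be told apart.

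At an adjusted p under 0.05 from edgeR's quasi-likelihood test, adjusted over all genes tested, 3 of the 44 tested members fell (6.82%), against 1.66% of all genes, and 1 rose (2.27%), against 0.608% of all genes. *Trim25* and *Trim34a*, both interferon-induced, and *Trim7* were the members that fell, and *Trim29* was the member that rose. Within the interferon-induced group 2 of 11 fell (18.2%). Outside it 1 of 33 fell (3.03%), a single gene at a share near that of all genes. Where p before adjustment was under 0.001 and the fold over 2, *Trim34a* alone was called lower, where 0.572% of all genes were, and *Trim29* alone higher, where 0.229% were. The groups did not overlap, with each knockout tumor lower, for *Trim25*, *Trim26* and *Trim7*, as for 2.02% of all genes. They did not overlap in the other direction for *Trim29*, as for 1.27% of all genes. The count of members called lower depended on the tool, with 9 in DESeq2 (7 of the 11 interferon-induced and 2 of the 33 others) and 12 in limma-voom (8 of 11 and 4 of 33), where 3.76% and 6.19% of all genes were called lower. Over all genes these tools called 2.51% and 5.03% higher, and edgeR's unadjusted p was under 0.05 for 10.5% on the lower and 8.19% on the higher side. It was 5 without wild-type replicate 2 and 7 without wild-type replicate 5. These p-values measure the spread between the 11 tumors.

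**Figure D1:**
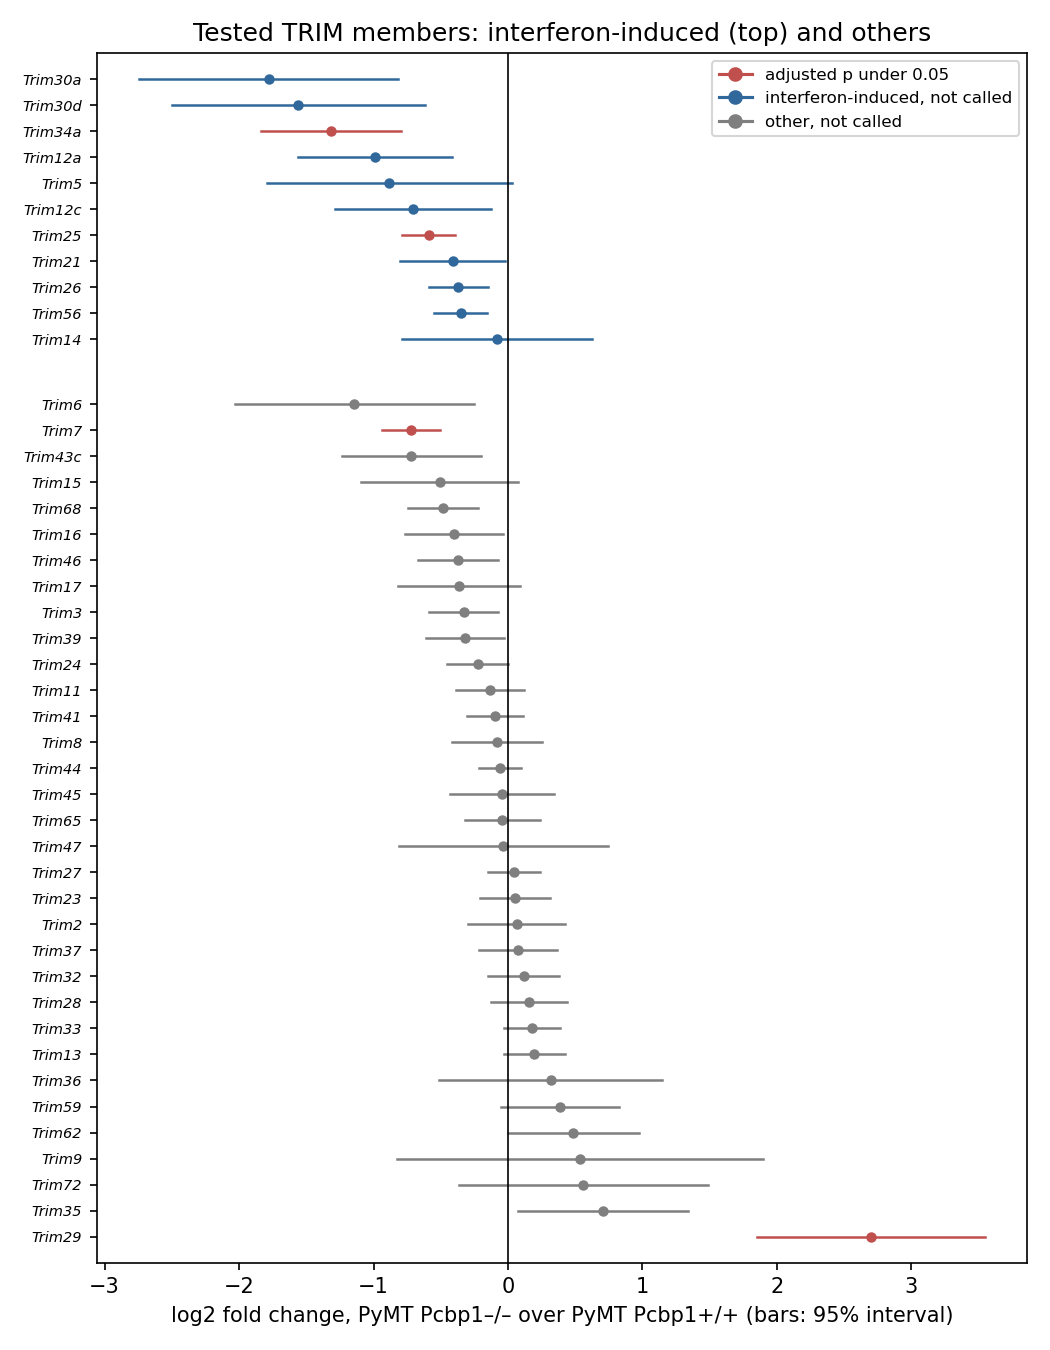
Log2 fold change of each of the 44 tested TRIM members (x axis, knockout over wild-type, edgeR), with the 11 interferon-induced members above and the 33 others below. Points are estimates and bars 95% intervals, and colors mark members with an adjusted p under 0.05. The interferon-induced members lie left of 0, from -1.78 to -0.08, while the others lie on both sides up to *Trim29* at 2.70.

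*Trim25* (ENSMUSG00000000275.16, chr11:88999376-89020293, plus strand) encodes the ligase that ubiquitinates the RNA sensor RIG-I. Its level was 113 CPM at the lowest, 120 at the median and 145 at the highest in knockout tumors, and 181, 195, 197, 197 and 164 CPM in wild-type replicates 1 to 5. All 6 knockout tumors lay below all 5 wild-type tumors, with means of 124 ± 12.8 (SD, n = 6) and 187 ± 14.4 CPM (SD, n = 5). *Trim25* fell in edgeR's test by 0.59 on the log2 scale (standard error, SE, 0.09, 95% interval -0.79 to -0.39, adjusted p = 0.00651). Of the 4 other tested genes within 250 kb none was called by edgeR, and their lowest adjusted p was 0.263, for *Dgke* at -0.44, a neighbor named after its values were seen.

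*Trim34a* (ENSMUSG00000056144.14, chr7:104244457-104262234, plus strand) encodes a B30.2 member closely related to Trim5 and Trim6. It had 8.52 CPM at the lowest, 10.1 at the median and 14.0 at the highest in knockout tumors, and 26.8, 23.8, 36.3, 32.4 and 11.7 CPM in wild-type replicates 1 to 5. Wild-type replicate 5 lay among the knockout tumors, below 1 of them, and the other 4 wild-type tumors lay above all 6. Means were 10.5 ± 2.01 (SD, n = 6) and 26.2 ± 9.44 CPM (SD, n = 5), and *Trim34a* fell in edgeR's test by 1.31 on the log2 scale (SE 0.24, 95% interval -1.83 to -0.79, adjusted p = 0.0160), lower than the wild-type mean in 6 of 6 knockout tumors. Without wild-type replicate 4 the edgeR log2 fold change was -1.25 with an adjusted p of 0.0509, and over all 21 alternatives the adjusted p ranged from 4.50e-05 to 0.0509.

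*Trim34a* sits in a run of TRIM genes on chromosome 7 (chr7:104218793-104507849), which holds 10 members: *Trim6*, *Trim34a*, *Trim5*, *Trim12a*, *Trim34b*, *Trim12c*, *Trim30b*, *Trim30c*, *Trim30a* and *Trim30d*. Apart from *Trim6* these are in the interferon-induced group. The rodent genes of this run are relatives of human TRIM5, whose protein binds the capsids of incoming retroviruses. All 7 tested members of the run were negative, where 9619 of all 19232 genes tested were. Their median log2 fold change was -1.14, and 1 of the 7 fell in edgeR's test, where 1.66% of all genes did. The 6 tested interferon-induced members of the run had a median of -1.15, and the 5 tested interferon-induced members elsewhere in the genome a median of -0.37. This difference between locations was not tested.

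The largest log2 difference in the run was that of *Trim30a* (ENSMUSG00000030921.17, chr7:104409025-104465193, minus strand), a mouse gene whose product restrains NF-kB signaling by acting on TAB2 and TAB3. Knockout tumors had 5.54 CPM at the lowest, 8.40 at the median and 20.5 at the highest, and wild-type replicates 1 to 5 had 46.4, 29.6, 48.8, 49.3 and 7.50 CPM. Wild-type replicates 1 to 4 lay above every knockout tumor, whereas replicate 5 lay below 4 of the 6. The log2 fold change of -1.78 (SE 0.44, 95% interval -2.74 to -0.82) had an adjusted p of 0.0581 from edgeR and did not pass, although all 6 knockout tumors were below the wild-type mean. Without wild-type replicate 5 *Trim30a* had -2.04 with an adjusted p of 0.00977 from edgeR, and without knockout replicate 6 -2.10 with an adjusted p of 0.0386, within a range of 0.00277 to 0.134 over the 21 alternatives. DESeq2 and limma-voom, with all tumors kept, each called *Trim30a* lower.

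Its neighbor *Trim30d* (chr7:104470014-104507849) had 2.06 CPM at the lowest, 3.91 at the median and 7.96 at the highest in knockout tumors and 19.3, 12.9, 17.3, 13.9 and 2.59 CPM in wild-type replicates 1 to 5. The order of the tumors was like that of *Trim30a*, with wild-type replicate 5 among the knockout tumors. *Trim30d* did not pass (log2 fold change -1.56, SE 0.43, edgeR adjusted p = 0.0842, below the wild-type mean in 6 of 6 knockout tumors). DESeq2 and limma-voom called *Trim30d* lower with all tumors kept. Without wild-type replicate 5 *Trim30d* had -1.82 with an edgeR adjusted p of 0.0129, the lowest in a range that reached 0.176. A pseudogene annotated within it on the same strand, AC122400.3, overlaps it by 1095 bases and had a log2 fold change of -0.02 (SE 0.24, edgeR adjusted p = 0.972, knockout 4.53 ± 1.47 and wild-type 4.65 ± 1.32 CPM). That pseudogene was named for its position.

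*Trim12a*, another relative of TRIM5, had 7.57 CPM at the lowest, 9.54 at the median and 13.5 at the highest in knockout tumors and 18.9, 25.4, 26.7, 19.9 and 8.04 CPM in wild-type replicates 1 to 5. Wild-type replicates 1 to 4 were again above all knockout tumors. The log2 fold change of *Trim12a* was -0.99 (SE 0.26, edgeR adjusted p = 0.0735, below the wild-type mean in 6 of 6). With all tumors kept *Trim12a* passed in DESeq2 (adjusted p = 0.0134) and limma-voom (adjusted p = 0.0212). Without wild-type replicate 5 *Trim12a* had -1.18 with an edgeR adjusted p of 0.00945, in a range of 0.00945 to 0.168. *Trim12c* had 13.2 ± 4.04 (SD, n = 6) and 21.6 ± 7.50 CPM (SD, n = 5), with a log2 fold change of -0.71. *Trim5* had 2.89 ± 1.12 (SD, n = 6) and 5.39 ± 3.28 CPM (SD, n = 5), with a log2 fold change of -0.88. Neither passed in edgeR, with adjusted p of 0.182 for *Trim12c* and 0.282 for *Trim5*, and both were below the wild-type mean in 6 of 6 knockout tumors. In limma-voom *Trim12c* passed (-0.84, adjusted p = 0.0393).

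*Trim6*, whose ligase makes free ubiquitin chains used by the kinase IKK-epsilon, is the member of the run placed outside the interferon-induced group. It had 0.825 CPM at the lowest, 1.06 at the median and 2.16 at the highest in knockout tumors and 2.92, 4.74, 3.50, 2.82 and 0.625 CPM in wild-type replicates 1 to 5. Wild-type replicate 5 had the lowest value of all 11 tumors, and the other 4 wild-type tumors lay above all knockout tumors. *Trim6* did not pass (log2 fold change -1.14, SE 0.41, edgeR adjusted p = 0.160, below the wild-type mean in 6 of 6). Without wild-type replicate 5 it had -1.39 with an edgeR adjusted p of 0.0392, in a range of 0.0392 to 0.287.

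The other members of the run, *Trim34b*, *Trim30b* and *Trim30c*, were low and were not tested. Their highest values in any tumor were 1.09, 1.09 and 0.789 CPM, or 12, 12 and 9 counts. Genes of this run are near-identical in places, and how reads shared between copies were assigned is not given in the sources used here, so each value in the run is uncertain to that degree. The estimated counts of *Trim5*, *Trim6*, *Trim12a*, *Trim30a* and *Trim30d* were whole numbers in all 11 tumors, to a tolerance of 1e-06. Those of *Trim34a* were not whole in 3 tumors, by at most 0.014, and those of *Trim12c* in 2, by at most 0.001. Outside the run, the tested gene within 250 kb was the pseudogene RP23-157I3.5, given for its position, with 9.17 ± 1.57 (SD, n = 6) and 5.46 ± 1.35 CPM (SD, n = 5). Each knockout tumor was above each wild-type tumor, but it did not pass (log2 fold change 0.73, SE 0.20, edgeR adjusted p = 0.0804).

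**Figure D2:**
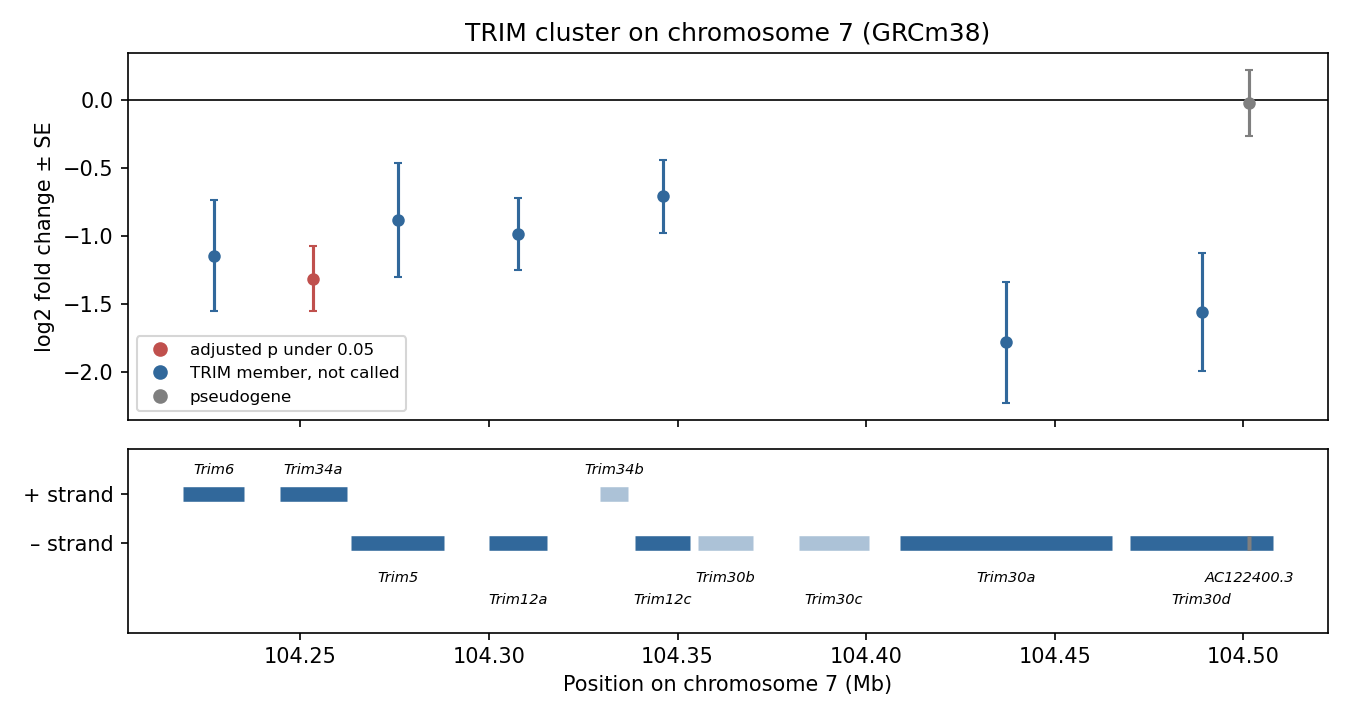
TRIM genes of chromosome 7, drawn to scale on GRCm38. The upper panel gives the log2 fold change ± standard error (y axis) of each tested gene at its midpoint (x axis, position in Mb), and the lower panel the genes by strand, with untested members in light blue. All 7 tested members lie below 0, from -1.78 for *Trim30a* to -0.71 for *Trim12c*, and the pseudogene AC122400.3 within *Trim30d* lies at -0.02.

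A single wild-type tumor stood apart from its group across the interferon-induced members. Wild-type replicate 5 was the lowest wild-type tumor for 10 of the 11 tested interferon-induced members, and for 10 of the 33 others. It lay at or below the highest knockout tumor for 9 of the 11, where wild-type replicates 1, 2, 3 and 4 did so for 1, 3, 1 and 1. Summed CPM of the 11 members was 581, 530, 621, 620 and 410 in wild-type replicates 1 to 5, and between 334 and 404 in knockout tumors. With this tumor left out, 7 members instead of 3 fell in edgeR's test: *Trim6*, *Trim12a*, *Trim30a* and *Trim30d* joined *Trim7*, *Trim25* and *Trim34a*. The share of all genes called lower was then 1.65%. This tumor was singled out from these same values, and it was the lowest wild-type tumor for most of these members. The added calls are therefore a description only.

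Markers of other cell types in that tumor were read beside these values. Of 15 skeletal muscle markers 14 were in the table and 4 were tested, with *Ttn* the most abundant. Their summed CPM was 266 in wild-type replicate 5, against 49.2, 23.5, 18.6 and 20.6 in wild-type replicates 1 to 4, and 24.0 at the lowest, 58.3 at the median and 197 at the highest in knockout tumors. Summed CPM of the 11 macrophage markers, all tested and led by *Lyz2*, was 679, 498, 535, 430 and 322 in wild-type replicates 1 to 5, and 418 at the lowest, 524 at the median and 670 at the highest in knockout tumors. For the 9 T cell markers, of which 4 were tested and *Cd8a* was the most abundant, it was 10.6, 6.64, 8.94, 11.1 and 3.84 in wild-type tumors, and 4.27, 7.14 and 10.3 at the lowest, median and highest in knockout tumors. Wild-type replicate 5 thus had the highest muscle sum of all 11 tumors and the lowest macrophage and T cell sums. None of the markers present in the tables was at 0 in all tumors, and the part of cell composition in the TRIM values was not tested.

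**Figure D3:**
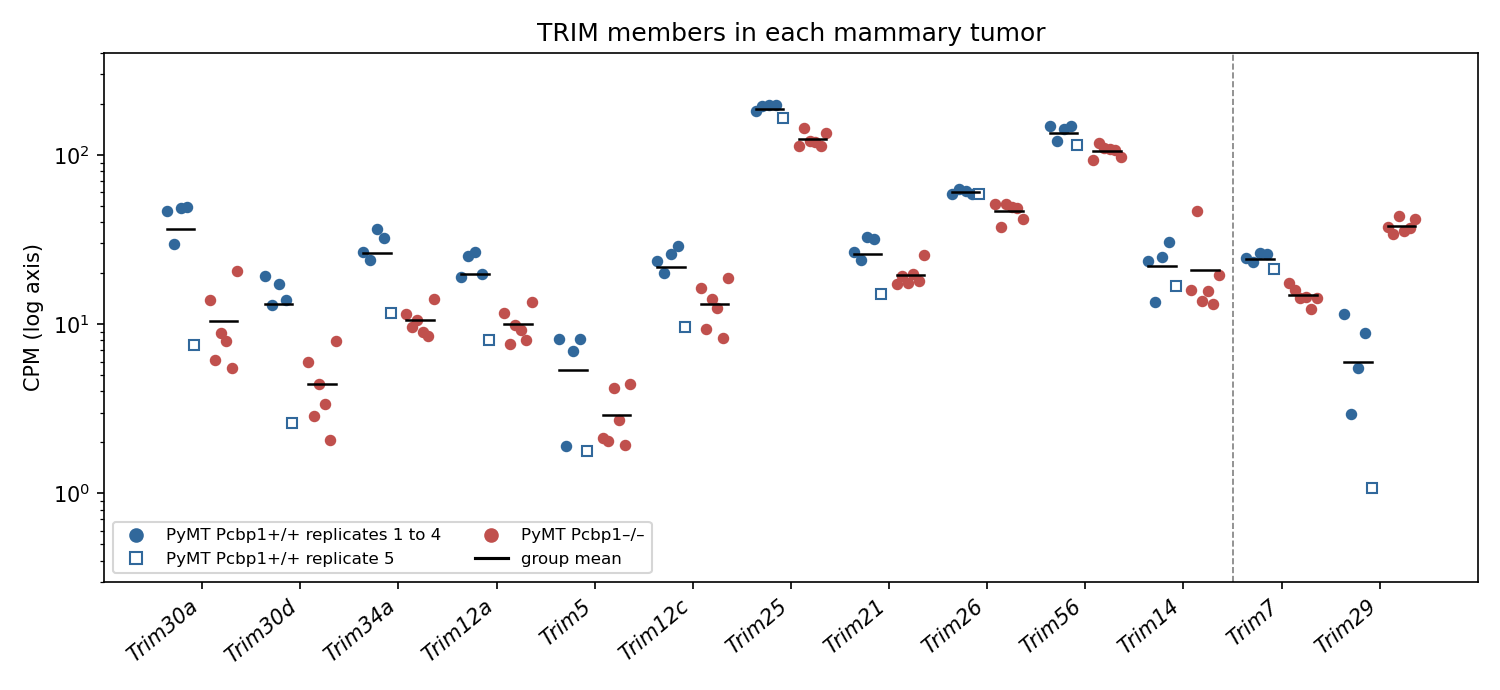
CPM of 13 TRIM members in each of the 11 tumors on a log axis, with a black line at each group mean. Filled blue points are wild-type replicates 1 to 4, open squares wild-type replicate 5 and red points knockout tumors, and the dashed line separates interferon-induced members from *Trim7* and *Trim29*. The open square lies at 7.50 CPM for *Trim30a*, where the other wild-type tumors have 29.6 to 49.3, and each red point lies above each wild-type tumor for *Trim29*.

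Away from chromosome 7's run, *Trim21* (ENSMUSG00000030966.13, chr7:102557921-102565486, minus strand) encodes a cytosolic receptor for antibody on incoming viruses. It had 17.3 CPM at the lowest, 18.7 at the median and 25.4 at the highest in knockout tumors and 26.6, 24.0, 32.6, 31.9 and 15.1 CPM in wild-type replicates 1 to 5. Wild-type replicate 5 had the lowest value of all tumors, and knockout replicate 6 lay above wild-type replicate 2. The log2 fold change of -0.41 (SE 0.18) did not pass, with an edgeR adjusted p of 0.244 and values below the wild-type mean in 6 of 6 knockout tumors.

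*Trim26* (chr17:36837134-36859398), a ligase encoded in the major histocompatibility complex, had 37.5 CPM at the lowest, 48.9 at the median and 51.4 at the highest in knockout tumors and 58.8, 62.5, 61.4, 58.8 and 58.4 CPM in wild-type replicates 1 to 5. The groups did not overlap, and here wild-type replicate 5 was close to the rest of its group. The log2 fold change of *Trim26* was -0.37 (SE 0.10), and it did not pass in edgeR, with an adjusted p of 0.0810. It passed in DESeq2 (adjusted p = 0.02185) and limma-voom (adjusted p = 0.04195), in a range of 0.02185 to 0.1753 over the alternatives. *Trim56* (chr5:137105644-137116209), whose ligase acts on the DNA-sensing proteins cGAS and STING, had 93.8 CPM at the lowest, 108 at the median and 118 at the highest in knockout tumors and 148, 122, 143, 149 and 114 CPM in wild-type replicates 1 to 5. Wild-type replicate 5 lay below 1 knockout tumor. *Trim56* had a log2 fold change of -0.35 (SE 0.09, edgeR adjusted p = 0.0649, below the wild-type mean in 6 of 6), and without wild-type replicate 2 an edgeR adjusted p of 0.0456, in a range of 0.00814 to 0.174 over the alternatives. DESeq2 and limma-voom called *Trim56* lower with all tumors kept.

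*Trim14*, a member without a RING finger that binds the mitochondrial adaptor MAVS, had 1 knockout tumor far above the others. It had 13.2 CPM at the lowest, 15.7 at the median and 46.5 at the highest in knockout tumors and 23.6, 13.5, 24.9, 30.7 and 16.9 CPM in wild-type replicates 1 to 5. Knockout replicate 2 lay above all other tumors, and the groups overlapped (log2 fold change -0.08, SE 0.33, edgeR adjusted p = 0.917, below the wild-type mean in 5 of 6). Without knockout replicate 2 the log2 fold change was -0.48 (unadjusted p = 0.0377, edgeR adjusted p = 0.213), and limma-voom, which weights the tumors by quality, gave -0.56 (unadjusted p = 0.0290, adjusted p = 0.120). The sign turned when other tumors were left out, with 0.01 without knockout replicate 3, 0.02 without knockout replicate 5, 0.0030 without wild-type replicate 3 and 0.04 without wild-type replicate 4. *Trim14* overlaps *Nans* on the other strand by 9852 bases, and its estimated counts were not whole in any tumor, so its level is uncertain.

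Beyond the interferon-induced group, members were taken by domain or tissue, and members given there to complete a group lie outside the rule for named genes. The nuclear corepressors with a PHD finger and a bromodomain had 3 of 4 members tested. *Trim28*, the corepressor that KRAB zinc finger proteins recruit, had 82.0 ± 10.2 (SD, n = 6) and 73.7 ± 15.2 CPM (SD, n = 5), with a log2 fold change of 0.16. *Trim33*, which binds SMAD proteins, had 0.18, and *Trim24*, a cofactor of nuclear receptors, -0.22. None of the 3 passed edgeR's test, 0 had an unadjusted p under 0.05, and DESeq2 and limma-voom each called 0.

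Of the members with NHL or filamin repeats 4 of 5 were tested, 2 negative and 2 positive. *Trim2*, a ligase for neurofilament light chain, had 148 CPM at the lowest, 174 at the median and 270 at the highest in knockout tumors and 187, 148, 176, 232 and 185 CPM in wild-type replicates 1 to 5. The groups overlapped throughout, and its log2 fold change of 0.07 (SE 0.17) had an edgeR adjusted p of 0.865, with 3 of 6 knockout tumors above the wild-type mean. Its sign was negative under 5 of the 21 alternatives. None of the 4 passed edgeR's test, 1 had an unadjusted p under 0.05, and DESeq2 and limma-voom each called 0.

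The 4 tested members with a transmembrane segment, an ARF domain or a MATH domain were *Trim13*, *Trim23*, *Trim37* and *Trim59*. All were positive, from 0.05 to 0.39 with a median of 0.14, and none passed edgeR's test. In this group 0 had an unadjusted p under 0.05, and DESeq2 and limma-voom each called 0. Among the 3 tested members with a COS box 1 was negative and 2 positive, 0 passed edgeR's test, 1 had an unadjusted p under 0.05, and DESeq2 called 0 and limma-voom 1 (*Trim46*, -0.37 in edgeR, named after its values were seen).

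Members of muscle and germ cells were mostly below the filter. *Trim72*, which takes part in membrane repair in striated muscle, was tested and had 1.09 ± 0.343 (SD, n = 6) and 0.724 ± 0.463 CPM (SD, n = 5), with a log2 fold change of 0.56 and an edgeR adjusted p of 0.512 (SE 0.43, above the wild-type mean in 5 of 6). The muscle ligases *Trim55* and *Trim63* were not tested, with highest values of 0.585 and 0.447 CPM in any tumor. *Trim43c*, expressed in early embryos, had a log2 fold change of -0.72 (SE 0.24, edgeR adjusted p = 0.132, below the wild-type mean in 6 of 6, with 1.38 ± 0.312 and 2.28 ± 0.581 CPM), and limma-voom called it lower while DESeq2 did not. Other untested members had highest values of 2.09 CPM (*Trim71*), 1.05 (*Trim43a*), 0.854 (*Trim10*), 0.618 (*Trim67*), 0.547 (*Trim66*), 0.350 (*Trim69*) and 0.190 (*Trim50*).

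The largest domain group, B30.2 members outside the interferon-induced group together with members without a carboxy-terminal domain, had 14 of 16 tested, 11 negative and 3 positive, with a median of -0.11. *Trim7* (ENSMUSG00000040350.16, chr11:48826140-48852209, plus strand), whose protein binds glycogenin, was the member of this group that fell. It had 12.3 CPM at the lowest, 14.4 at the median and 17.4 at the highest in knockout tumors and 24.6, 23.4, 26.2, 26.0 and 21.2 CPM in wild-type replicates 1 to 5. All 6 knockout tumors lay below all 5 wild-type tumors, wild-type replicate 5 included. Means were 14.8 ± 1.74 (SD, n = 6) and 24.3 ± 2.08 CPM (SD, n = 5), and *Trim7* fell in edgeR's test by 0.72 on the log2 scale (SE 0.10, 95% interval -0.94 to -0.50, adjusted p = 0.00414).

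Genes that overlap *Trim7* limit how far this value belongs to it. An antisense gene, RP23-14F5.9, overlaps it by 8562 bases and had 4.04 ± 0.995 (SD, n = 6) and 9.12 ± 1.06 CPM (SD, n = 5), and it fell by 1.18 on the log2 scale (SE 0.17, edgeR adjusted p = 0.00480, groups without overlap). At the start of *Trim7*, RP23-14F5.5 overlaps it by 516 bases on the other strand and had a log2 fold change of 0.22 (SE 0.10, edgeR adjusted p = 0.247). Whether the counting used strand is not given in the sources used here, so reads of *Trim7* and its antisense partner cannot be told apart. The estimated counts of *Trim7* were not whole in all 11 tumors, by up to 0.493. Of the 14 genes tested within 250 kb that are no TRIM members, 11 were negative and 3 positive, where 9619 of all 19232 genes tested were negative. In edgeR's test 2 of the 14 fell, where 1.66% of all genes did. These were the antisense gene and *Irgm1*, an interferon-induced GTPase (-1.07, SE 0.21, edgeR adjusted p = 0.0233, with 23.8 ± 3.78 and 49.8 ± 15.8 CPM, chosen after its values were seen).

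*Trim68* (chr7:102677582-102687327), a coactivator of the androgen receptor, came closest to the threshold in this group without passing. It had 16.5 CPM at the lowest, 17.7 at the median and 22.2 at the highest in knockout tumors and 25.6, 21.2, 26.9, 33.4 and 22.2 CPM in wild-type replicates 1 to 5. Knockout replicate 2 was the tumor that overlapped the wild-type range. Its log2 fold change was -0.48 (SE 0.12, edgeR adjusted p = 0.0589, below the wild-type mean in 6 of 6). Without knockout replicate 2 *Trim68* had an edgeR adjusted p of 0.0455 and without wild-type replicate 2 of 0.0343, in a range of 0.00577 to 0.147. Both DESeq2 and limma-voom called *Trim68* lower with all tumors kept. *Trim8*, a ligase that acts on SOCS proteins, had 107 ± 20.1 (SD, n = 6) and 113 ± 24.2 CPM (SD, n = 5), with a log2 fold change of -0.08 and an edgeR adjusted p of 0.819, lower than the wild-type mean in 4 of 6 knockout tumors.

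On the positive side of this group lay *Trim35* with a log2 fold change of 0.71 (SE 0.29, edgeR adjusted p = 0.218, above the wild-type mean in 6 of 6), and *Trim62*, linked to the polarity of mammary acini, with 0.49 (SE 0.23, edgeR adjusted p = 0.270, above in 5 of 6). Both were chosen after their values were seen, and neither passed.

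*Trim29* (ENSMUSG00000032013.6, chr9:43310848-43336115, plus strand), a member without a RING finger known from basal and squamous epithelium, was the member that rose. It had 34.3 CPM at the lowest, 37.1 at the median and 43.5 at the highest in knockout tumors and 11.5, 2.94, 5.52, 8.84 and 1.07 CPM in wild-type replicates 1 to 5. All 6 knockout tumors lay above all 5 wild-type tumors, and the wild-type values were spread more widely in proportion. Means were 38.2 ± 3.69 (SD, n = 6) and 5.98 ± 4.25 CPM (SD, n = 5), and the log2 fold change was 2.70 (SE 0.39, 95% interval 1.86 to 3.55, edgeR adjusted p = 0.00481), which is 6.51-fold. *Trim29* passed under all 21 alternatives, with log2 fold changes of 2.44 to 3.05 and adjusted p of 1.97e-09 to 0.0405. Of the 3 other genes tested within 250 kb, *Arhgef12* (-0.18), *Tmem136* (-0.70) and *Oaf* (0.34), none was called by edgeR, with a lowest adjusted p of 0.286 for *Oaf*. These neighbors were given for their position.

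Markers of basal and squamous epithelium were read beside *Trim29*. Of the 12 listed, 11 were tested, 3 negative and 8 positive, with a median log2 fold change of 0.26, and *Oxtr* was the most abundant. Their summed CPM was 820, 410, 265, 313 and 113 in wild-type replicates 1 to 5, and 426, 148, 381, 412, 344 and 412 in knockout replicates 1 to 6. The sums overlapped (exact permutation test, two-sided, p = 0.827, or 0.969 after adjustment over 9 marker lists). Within the wild-type group, replicate 1 had the highest sum and the highest *Trim29* (11.5 CPM) and replicate 5 the lowest of both (1.07 CPM of *Trim29*), while replicate 2 had the second highest sum and the second lowest *Trim29* (2.94 CPM). Within the knockout group, replicate 2 had the lowest sum and the lowest *Trim29* (34.3 CPM), while replicate 1 had the highest sum with 37.4 CPM of *Trim29*, below the 43.5 CPM of replicate 3. Between the groups, knockout replicate 2 had a lower sum and more *Trim29* than wild-type replicate 1. *Dsg3*, a desmosomal cadherin of stratified epithelium, was the 1 of the 11 called higher by edgeR, against 0.608% of all genes. It had a log2 fold change of 3.00 (SE 0.65, edgeR adjusted p = 0.0337, 4.04 ± 2.67 and 0.485 ± 0.341 CPM, above the wild-type mean in 6 of 6). This call was lost without knockout replicate 3 or wild-type replicate 1, 2, 3 or 4, where edgeR's adjusted p was 0.0568 to 0.0891 and the log2 fold change 2.73 to 3.36. *Dsg3* was below the count filter without knockout replicate 1, 2, 5 or 6, and passed it whichever wild-type tumor was left out. It thus entered the test through the knockout tumors, where it was high, and its call is a description only. Of this list DESeq2 called 2 genes higher and limma-voom 0, against 2.51% and 5.03% of all genes. The other gene in DESeq2 was *Dsc3*, a desmocollin (4.09 ± 3.04 and 0.708 ± 0.658 CPM, log2 fold change 2.53, edgeR adjusted p = 0.0715, above the wild-type mean in 6 of 6). *Krt14*, a basal keratin, had 276.6 CPM in wild-type replicate 2, 4.64 to 47.6 CPM in the other wild-type tumors and 3.82 to 21.9 CPM in knockout tumors. Its log2 fold change of -2.42 (edgeR adjusted p = 0.160, below the wild-type mean in 6 of 6) became -0.60 (adjusted p = 0.574) without that tumor. *Krt5*, its partner keratin, had 184 CPM in wild-type replicate 1, 3.13 to 25.8 CPM in the other wild-type tumors and 11.6 to 85.8 CPM in knockout tumors. Its log2 fold change of 0.51 (edgeR adjusted p = 0.768, above the wild-type mean in 5 of 6) became 2.08 (unadjusted p = 0.00581, adjusted p = 0.130) without wild-type replicate 1. *Dsc3*, *Krt5* and *Krt14* were chosen after their values were seen. The part of these markers in the *Trim29* result was not tested.

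The remaining tested members without a RING finger were *Trim44* and *Trim16*. *Trim44*, which carries a zinc finger of the type found in deubiquitinases, had 143 CPM at the lowest, 150.1 at the median and 161 at the highest in knockout tumors and 189, 154, 136, 165 and 144 CPM in wild-type replicates 1 to 5. The groups overlapped, with a log2 fold change of -0.06 (SE 0.07, edgeR adjusted p = 0.695, below the wild-type mean in 5 of 6). *Trim16* had a log2 fold change of -0.40 (SE 0.17) and an edgeR adjusted p of 0.222, below the wild-type mean in 6 of 6. In all, 24 of the 56 members overlap another annotated gene, *Trim2*, *Trim28*, *Trim43c*, *Trim44*, *Trim68* and *Trim72* among them, and their levels are uncertain for that reason.

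Levels can be compared between genes only per length, here as mean CPM over all 11 tumors per kilobase of exon. On that scale *Trim25* was the highest of the 56 members at 26.5, followed by *Trim8* at 23.5, *Trim44* at 20.7, *Trim11* at 19.8, *Trim28* at 18.1 and *Trim41* at 17.7. Among the members that passed edgeR's test, *Trim34a* ranked 16 at 6.70, *Trim29* 17 at 6.67 and *Trim7* 29 at 2.35 CPM per kilobase. *Trim30a* ranked 31 at 2.27. The mean pools both groups, and their order differed: *Trim8* was above *Trim25* in knockout tumors (22.9 and 21.6 CPM per kilobase) and below it in wild-type tumors (24.1 and 32.4), and *Trim29* had 10.8 in knockout and 1.69 in wild-type tumors. Exon lengths came from a later annotation, matched by gene identifier, so this order is approximate.

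Promoter sequences were read because the tested interferon-induced members lay on the same side. The windows run from 250 bases before to 50 bases after a gene's start and are credited to RefSeq on GRCm38.p6, and 42 of the 56 members matched, with 56 windows. *Trim14*, *Trim29*, *Trim8*, *Trim11*, *Trim16*, *Trim35* and *Trim43c* were among those without an entry. The letters GAAA, any 2 bases and GAAA again, a form of the interferon-stimulated response element (ISRE), and TTCNNNGAA, a form of the gamma-activated site (GAS), were searched on both strands. The ISRE letters were present in 9 of 14 windows of interferon-induced members (64.3%), in 1 of 42 windows of the other members (2.38%) and in 1131 of 32851 windows of all genes (3.44%). By gene, these were 8 of 13 interferon-induced members (*Trim5*, *Trim12a*, *Trim12c*, *Trim21*, *Trim26*, *Trim30a*, *Trim30d* and *Trim34a*) and 1 of 29 others (*Trim2*), against 3.99% of all genes. TTCNNNGAA was present in 1 of 13 interferon-induced members (*Trim30c*), in 3 of 29 others (*Trim15*, *Trim45* and *Trim46*) and in 9.55% of all genes. The matches of *Trim5*, *Trim12a* and *Trim12c* share the letters TTTCTGTTTC, and those of *Trim30a* and *Trim30d* share TTTCTTTTTC. These are related genes of the chromosome 7 run, so their windows are not separate cases and the shares count copies. A match is a description of letters and not a bound site.

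The windows of *Trim34a*, *Trim30a*, *Trim30d* and *Trim21* are shown since they hold the ISRE letters, and those of *Trim25* and *Trim7* since these genes fell and their windows do not hold them. Each is written from 5′ to 3′ on the strand of the gene, in lower case, and capitals mark each match of the ISRE letters on either strand. Positions are *Trim34a* chr7:104244207-104244506 (plus strand), *Trim30a* chr7:104465144-104465443 (minus), *Trim30d* chr7:104507800-104508099 (minus), *Trim21* chr7:102565433-102565732 (minus), *Trim25* chr11:88999153-88999452 (plus) and *Trim7* chr11:48825888-48826187 (plus). Counted from 1 at the 5′ end, the match covers bases 261 to 270 in *Trim34a*, 215 to 224 in *Trim30a* and 210 to 219 in *Trim30d*, and in *Trim21* a pair of overlapping matches covers bases 264 to 279. *Trim30a* and *Trim30d* share the matched letters TTTCTTTTTC, and *Trim30a* has a further window with the same letters at bases 253 to 262.
Trim34a: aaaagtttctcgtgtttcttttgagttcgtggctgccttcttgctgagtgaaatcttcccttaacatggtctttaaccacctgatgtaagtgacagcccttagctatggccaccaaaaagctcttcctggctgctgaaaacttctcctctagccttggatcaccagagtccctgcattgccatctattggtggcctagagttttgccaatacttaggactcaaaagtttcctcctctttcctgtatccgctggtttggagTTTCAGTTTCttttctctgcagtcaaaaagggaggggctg
Trim30a: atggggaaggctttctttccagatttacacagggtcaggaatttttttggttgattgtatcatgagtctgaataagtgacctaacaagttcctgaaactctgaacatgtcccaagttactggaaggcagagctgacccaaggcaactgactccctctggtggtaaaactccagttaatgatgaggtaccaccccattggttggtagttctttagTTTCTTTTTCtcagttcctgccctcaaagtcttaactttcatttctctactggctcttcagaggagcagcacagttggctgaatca
Trim30d: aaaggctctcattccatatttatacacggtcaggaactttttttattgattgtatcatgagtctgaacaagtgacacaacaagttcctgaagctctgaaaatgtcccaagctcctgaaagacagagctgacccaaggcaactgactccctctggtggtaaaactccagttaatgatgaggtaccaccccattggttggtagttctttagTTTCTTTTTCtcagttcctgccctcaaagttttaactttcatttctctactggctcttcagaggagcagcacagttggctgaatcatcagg
Trim21: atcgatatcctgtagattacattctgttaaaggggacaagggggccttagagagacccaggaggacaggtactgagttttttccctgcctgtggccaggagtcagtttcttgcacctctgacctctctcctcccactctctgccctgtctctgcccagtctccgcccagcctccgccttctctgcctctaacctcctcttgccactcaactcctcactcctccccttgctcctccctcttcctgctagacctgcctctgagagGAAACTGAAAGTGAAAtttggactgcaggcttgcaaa
Trim25: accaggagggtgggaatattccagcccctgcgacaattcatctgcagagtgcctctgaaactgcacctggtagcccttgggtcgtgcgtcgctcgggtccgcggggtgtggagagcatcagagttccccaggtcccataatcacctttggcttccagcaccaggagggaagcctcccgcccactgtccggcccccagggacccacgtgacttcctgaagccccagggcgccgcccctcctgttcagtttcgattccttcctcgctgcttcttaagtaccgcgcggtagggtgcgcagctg
Trim7: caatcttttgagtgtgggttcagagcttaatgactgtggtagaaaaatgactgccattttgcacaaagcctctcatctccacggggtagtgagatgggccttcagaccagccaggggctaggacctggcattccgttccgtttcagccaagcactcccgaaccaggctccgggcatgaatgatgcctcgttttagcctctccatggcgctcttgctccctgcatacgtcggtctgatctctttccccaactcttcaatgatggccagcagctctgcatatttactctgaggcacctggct

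TRIM proteins that carry other names were read as well. *Pml*, the organizer of nuclear bodies and itself interferon-induced, had 55.4 ± 9.32 (SD, n = 6) and 60.8 ± 11.6 CPM (SD, n = 5), with a log2 fold change of -0.14 and an edgeR adjusted p of 0.653, below the wild-type mean in 4 of 6. *Mid1*, which binds microtubules, had 11.5 ± 5.93 and 25.3 ± 15.1 CPM, with -1.12 and an edgeR adjusted p of 0.192, below in 6 of 6. *Mid2*, its paralog, had a log2 fold change of 0.02 and an edgeR adjusted p of 0.950. None of the 3 passed edgeR's test, 1 had an unadjusted p under 0.05, and DESeq2 and limma-voom each called 0.

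Partners of TRIM proteins in RNA and DNA sensing formed a list of 20 genes, all tested, of which 16 were negative and 4 positive with a median of -0.12. In edgeR's test 4 of the 20 fell, where 1.66% of all genes did, the RNA sensors *Ddx58* (RIG-I, the substrate of TRIM25; -0.98, adjusted p = 0.00618), *Ifih1* (-0.78, adjusted p = 0.0307) and *Dhx58* (-2.28, adjusted p = 0.00194), and the transcription factor *Irf7* (-2.89, adjusted p = 0.00194), each below the wild-type mean in 6 of 6 knockout tumors. The call of *Ifih1* was lost without knockout replicate 1, 3, 4 or 5 or wild-type replicate 1, 3 or 4, with -0.69 to -0.90 over all tumors left out and edgeR's adjusted p at 0.0615 to 0.0895 in those 7. *Ddx58* had 35.6 ± 3.12 (SD, n = 6) and 70.2 ± 16.7 CPM (SD, n = 5) and *Dhx58* 3.38 ± 0.337 and 16.4 ± 6.70 CPM. The other 16 genes of this list did not pass, among them the adaptor *Mavs* (-0.09) and the TRIM30a targets *Tab2* (-0.03) and *Tab3* (-0.01), named for their role.

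Of 13 genes of the ubiquitin and ISG15 systems, all tested, 7 were negative and 6 positive with a median of -0.10. In edgeR's test 4 of the 13 fell, against 1.66% of all genes, the ubiquitin-like modifier *Isg15* (-2.62, adjusted p = 0.00343), its ligase *Herc6* (-1.54, adjusted p = 0.0115), its protease *Usp18* (-1.63, adjusted p = 0.0309) and its activating enzyme *Uba7* (-0.77, adjusted p = 0.0319), each below the wild-type mean in 6 of 6 knockout tumors. *Usp18* lost its call in 7 of the 11 fits with a tumor left out (without knockout replicate 1, 3, 4 or 5 or wild-type replicate 1, 3 or 4, edgeR's adjusted p 0.0603 to 0.0809, log2 fold change -1.41 to -1.86 over the 11). *Uba7* lost it in 9 (all except those without wild-type replicate 2 or 5, adjusted p in edgeR 0.0509 to 0.0918, log2 fold change -0.63 to -0.90 over the 11). Of the 9 genes that did not pass, the ISG15 conjugating enzyme *Ube2l6* had -0.59 (edgeR adjusted p = 0.215, below the wild-type mean in 6 of 6), and the ubiquitin conjugating enzymes *Ube2d3* and *Ube2n* -0.10 and 0.16. Of the 12 corepressor partners of *Trim28*, 4 were negative and 8 positive with a median of 0.17. None of the 12 passed edgeR's test, 2 were higher at an unadjusted p under 0.05 (8.19% of all genes were), and DESeq2 called 1 higher and limma-voom 2, against 2.51% and 5.03% of all genes.

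Markers of the other cells that a mammary tumor can hold were summed per tumor and compared by two-sided exact permutation tests, with p adjusted over 9 lists. Luminal epithelial markers, 11 tested and led by *Cdh1*, were present at 1344 to 2545 CPM in knockout and 1561 to 2374 CPM in wild-type tumors, with an exact p of 1. The sums gave an exact p of 0.693 for macrophage, 0.584 for T cell, 0.861 for skeletal muscle and 0.827 for basal and squamous markers. They gave an exact p of 0.411 for adipocyte, 0.320 for fibroblast and 0.316 for endothelial markers, led by *Pnpla2*, *Col1a1* and *Cdh5*. Of the adipocyte markers 8 of 8 tested were negative (median log2 fold change -0.80), of the endothelial markers 7 of 7 (median -0.20), and of the fibroblast markers 1 was negative and 7 positive (median 0.24). The adipocyte sums were 48.0 to 101 CPM in knockout and 50.1 to 199.8 CPM in wild-type tumors, the fibroblast sums 406 to 1008 and 406 to 759 CPM, and the endothelial sums 46.1 to 86.7 and 49.1 to 84.6 CPM. Wild-type replicate 3 had the adipocyte sum of 199.8 CPM, and the next highest wild-type sum was 85.7 CPM. B cell markers were low, with 3 in the table, 0 tested and *Cd22* the most abundant. Their sums were 0.979 to 3.80 CPM in knockout and 0.982 to 2.85 CPM in wild-type tumors, with an exact p of 0.818. Each adjusted p was 0.969 or 1. Of the macrophage markers 9 were positive and 2 negative with a median of 0.19, and *Cd14* fell in edgeR's test (-1.19, SE 0.28, adjusted p = 0.0481, below the wild-type mean in 6 of 6). The call of *Cd14* held in 3 of 11 fits with a tumor left out (without wild-type replicate 3, 4 or 5) and was lost in the other 8, with edgeR's adjusted p at 0.0679 to 0.1003 and log2 fold changes of -0.96 to -1.33 over the 11. Of these 11 markers edgeR called 1 lower and 0 higher (1.66% and 0.608% of all genes), with 1 higher at an unadjusted p under 0.05 (8.19%). DESeq2 called 1 lower and 1 higher (3.76% and 2.51% of all genes), and limma-voom 0 lower and 1 higher (6.19% and 5.03%). The higher gene was *Lyz2*, the lysozyme of macrophages and the most abundant marker, chosen after its values were seen (193 ± 36.9 and 94.4 ± 41.3 CPM, log2 fold change 1.02, edgeR adjusted p = 0.0657, above the wild-type mean in 6 of 6). In the 7 marker lists other than macrophage and basal and squamous, edgeR called 0 genes, 0 had an unadjusted p under 0.05, and DESeq2 called 0. In these lists limma-voom called 1, an adipocyte marker that was lower, where it called 6.19% of all genes lower. *Myod1* was not analysed here.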

How the data were processed

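The study deposited gene tables made from 11 bulk RNA libraries, 6 knockout and 5 wild-type, grouped here by their titles. The submitters' notes name FastQC, Bowtie2, Partek Flow and GRCm38, without versions, and the counting method and annotation version are not given in the sources used here. The authors deposited an estimated count per gene and tumor, which need not be whole, for 26283 genes. They also deposited CPM, the estimated count divided by the tumor's total and scaled to 1000000.

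After rounding, estimated counts entered edgeR 4.0.16 in R 4.3.3 (TMM factors, default filter on low counts, quasi-likelihood test with genotype as the term). Benjamini-Hochberg adjustment ran over the 19232 genes that passed the filter. The script was tested on simulated data. Single values per tumor were compared with scipy 1.17.1 by two-sided exact permutation tests, whose smallest p for 6 against 5 tumors is 0.00433. Tables were handled with pandas 2.3.3 in Python 3.11.15. Deposited gene ends lie 1 base past the end and were moved back by 1. Totals ranged from 10543189 to 14092192 estimated counts, and 3 counts equal 0.213 to 0.285 CPM. Exon lengths for CPM per kilobase came from the union of exons in GENCODE for GRCm39, matched by Ensembl identifier, and no coordinates were taken from it.

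Role groups of TRIM genes held 68 symbols, of which 12 had no row and were not analysed here. Further lists were TRIM proteins under other names, partners in RNA and DNA sensing, genes of the ubiquitin and ISG15 systems, corepressor partners of *Trim28*, and markers of macrophages, T cells, B cells, basal and squamous epithelium, luminal epithelium, skeletal muscle, adipocytes, fibroblasts and endothelium. The members and lists were chosen with earlier results of these data known. Genes were named by a rule: each interferon-induced member, each member past a threshold, the 5 other tested members with the smallest p, the 5 with the largest change and the 5 with the highest mean CPM. Of further lists, genes past the threshold were named.

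The 21 alternatives were DESeq2 1.42.0, limma 3.58.1 as voom with sample quality weights or as trend on CPM (log2 with 1 or 0.1 added), library size only, upper-quartile factors, no filter, at least 1 CPM in at least 5 tumors, protein-coding genes only, the replicate number as a block over 10 tumors, and each of the 11 tumors left out in turn. The single batch label left no comparison between batches. Protein sequences were not used here.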

Additional observations from a re-analysis of the deposited data

Results flagged for a closer look

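A tumor was singled out where its gap to the nearest tumor of its group took up an unusually large part of the group's range. Such gaps arise by chance in about 1 in 20 groups. Over the 60 groups looked at, 5 were found where about 3 would arise by chance.

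For *Trim14*, knockout replicate 2 had 46.5 CPM, and the nearest knockout tumor had 19.5. For *Trim21*, knockout replicate 6 had 25.4 CPM, and the nearest had 19.7. Among the sums of marker lists, knockout replicate 2 had 148 CPM of basal and squamous markers, below the nearest at 344. Wild-type replicate 5 had 266 CPM of skeletal muscle markers, above the nearest at 49.2. Wild-type replicate 3 had 199.8 CPM of adipocyte markers, above the nearest at 85.7.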

How the results depend on the processing

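In edgeR 3 TRIM members were called lower, against 9 in DESeq2 and 12 in limma-voom with sample quality weights, where 3.76% and 6.19% of all genes were called lower. Leaving out each tumor in turn gave 2 to 7, the replicate number as a block (replicate block) 5, and the other settings 3. *Trim29* was the member called higher in every setting. Over all genes 319 were called lower and 117 higher, against 723 and 482 in DESeq2, 1190 and 968 in limma-voom, and 144 to 389 and 41 to 187 with a tumor left out. Counts moved by over 1.5 times without knockout replicate 3 (144 and 42), 4 (148 and 46), 5 (163 and 48) or 6 (212 and 69), without wild-type replicate 1 (171 and 54), 3 (184 and 41) or 4 (148 and 42), and, for higher genes, 2 (187). With the replicate block, which leaves out the unpaired knockout replicate 6, 118 genes were called lower and 42 higher, the 5 TRIM members called lower including *Trim30a* (-1.96) and *Trim30d* (-1.71). Of the list genes called in edgeR, *Ddx58* (-0.97, edgeR adjusted p = 0.0551), *Ifih1* (-0.82, 0.0575), *Usp18* (-1.64, 0.0646), *Uba7* (-0.76, 0.0771) and *Cd14* (-1.01, 0.193) did not pass with the block, where *Dsg3* was below the count filter and *Dsc3* passed (2.63, 0.0464). The tumors share only a number: correlations of same-numbered tumors were 0.134, 0.0867, -0.0788, -0.144 and 0.293, and replicates 2, 3 and 4 had a higher one with another number.

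Limma on log2(CPM + 1) and log2(CPM + 0.1) gave adjusted p of 0.0547 and 0.0558 for *Ifih1*, 0.0671 and 0.0737 for *Usp18*, 0.0530 and 0.0542 for *Uba7* and 0.0888 and 0.0896 for *Cd14*, each negative, and called *Lyz2* higher (0.0438 and 0.0443). In limma-voom *Cd14* (-0.70, adjusted p = 0.0861) and *Dsg3* (2.64, 0.102) did not pass. *Cd14* also did not pass in edgeR with library size only (-1.21, adjusted p = 0.0606) or no filter on low counts (-1.17, 0.0570).

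Over the 18 named and tested members and 21 alternatives, 345 results kept their direction and side of the threshold, 23 came to pass it, 1 no longer passed and 9 changed sign. With a tumor left out, *Trim14* ranged from -0.4782 to 0.0445 and *Trim2* from -0.0368 to 0.1386. *Trim14* had 0.0131 without knockout replicate 3, 0.0172 without knockout replicate 5, 0.0030 without wild-type replicate 3 and 0.0445 without wild-type replicate 4. *Trim2* had -0.1310 in limma-voom, -0.0390 with the replicate block, -0.0368 without knockout replicate 2, -0.0139 without knockout replicate 6 and -0.0045 without wild-type replicate 2. The cause was not tested. With 10543189 to 14092192 counts per tumor, members under about 1 CPM rest on few counts. The 12 untested members were fitted only with no filter on low counts. There 14 of 14 interferon-induced members and 24 of the 42 others were negative. The members called in that fit were *Trim25*, *Trim29*, *Trim34a* and *Trim7*, none of them among the 12.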
